A study of Mus musculus with 6 samples.

Results

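Genes that mark club cells and other secretory cells of the airway were followed in the entire lung of the mouse embryo at stage E18.5. The 10 genes were taken as a list of known markers: Scgb1a1, Scgb3a2, Scgb3a1, Cyp2f2, Cldn10, Aldh1a7, Gabrp, Cbr2, Muc5b and Bpifa1. Of these, 9 had a row among the 24521 genes of the deposited normalised table, and the same 9 were among the 19042 genes with enough reads to be tested. Bpifa1 was found in the raw count table by its gene identifier.

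The study compared 3 wild-type lungs with 3 lungs labelled Mll3FDC/FDC (Mll3 KO), all at E18.5, with no treatment. Mll3 is the protein name of Kmt2c, a histone H3 lysine 4 methyltransferase that acts at enhancers. The labels name no Cre driver and do not state which part of the gene the FDC allele removes. Lobes were frozen without aeration, and polyadenylated RNA of the whole tissue was sequenced. In whole tissue, fewer cells of a type and less RNA per cell cannot be told apart.

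Club cells are the dome-shaped secretory cells of the conducting airways. They release secretoglobins, small proteins that enter the airway lining fluid, and they carry enzymes that oxidise and reduce inhaled chemicals. In the mouse they also act as progenitors that renew themselves and give rise to ciliated cells, and Notch signalling favours the secretory over the ciliated fate during development. Mucin-producing and serous-like secretory cells are found mostly in the larger airways and in glands.

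Libraries held between 20158689 and 23305306 reads, and libraries of 1 genotype differed by more than counting error (chi-square per degree of freedom 9.27 to 22.97). Library numbers follow the order of the samples and pair nothing. The labels do not say whether the 3 lungs of a genotype came from different litters, so p-values measure only the spread between these samples. Kmt2c had 3588, 4104 and 3453 reads in wild type and 3416, 3504 and 3399 in knockout, a log2 fold change of −0.09 (adjusted p = 0.737, edgeR). A count over the whole gene may come from parts that the allele keeps, so it does not check the genotype labels. Alveolar type 2 markers, which define distal lung epithelium, summed to between 20487 and 25515 CPM (read counts scaled to the effective library size) in the 6 libraries. The library labelled KO 3 had 59951 reads of Xist and 4 of Y-linked genes, while the other 5 libraries had 6 to 27 and 7414 to 9300. Sample titles carry the prefix AK7986 (wild type 1, wild type 2, KO 1) or AK7987 (wild type 3, KO 2, KO 3), whose meaning is not stated.

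No member passed the edgeR test between genotypes when genotype was the only term, while DESeq2 with the same single term called 1. edgeR's quasi-likelihood test with Benjamini-Hochberg adjustment over all 19042 genes called 0 of the 9 tested members at an adjusted p of 0.05, beside 0.368% of all genes tested, and 1 member had an unadjusted p under 0.05, beside 10.7% of all genes tested. DESeq2 called 1 member lower in knockout, Gabrp, beside 1.83% of genes with an adjusted p called lower. With the title prefix as a second term, edgeR called 3 members lower, Gabrp, Cbr2 and Cldn10, beside 2.54% of all genes called lower. The estimate was below 0 for 7 of the 9, beside 9018 of all 19042 genes tested, and above 0 for Scgb3a1 and Muc5b. The median log2 fold change of the 9 was −0.25, beside 0.01 over all genes tested. Leaving out 1 library at a time moved that median between −0.39 (without knockout 2) and −0.13 (without wild type 3); it was −0.15 without knockout 1 and −0.38 without wild type 2.

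**Figure D1:**
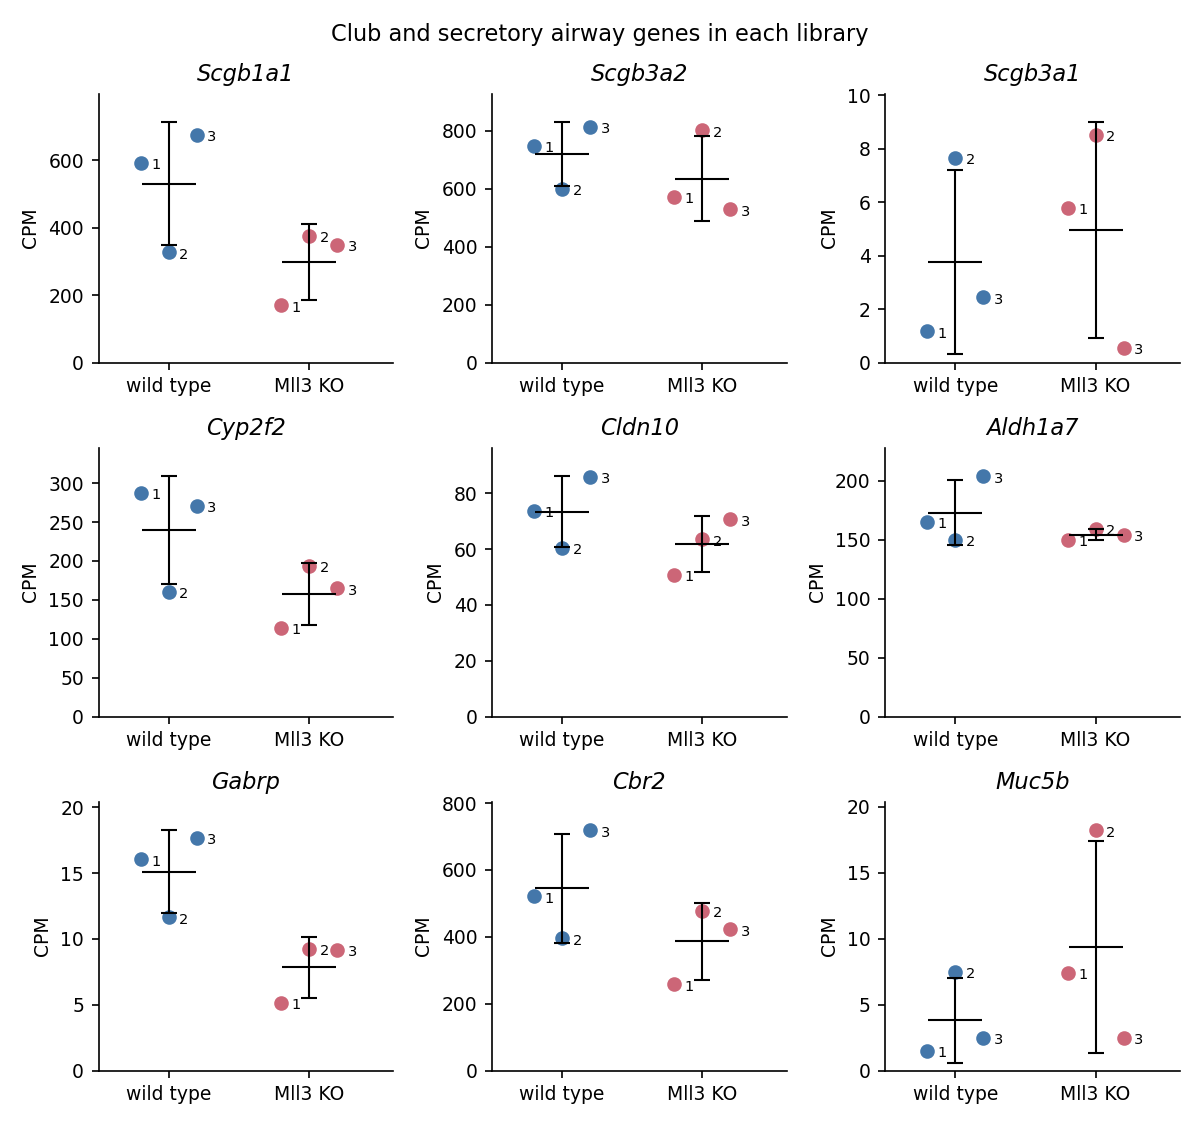
CPM of each of the 9 tested genes in each library, with wild type (blue) and Mll3 KO (red) side by side; numbers are library numbers, the long black line is the mean and the bar its SD (n = 3). Gabrp is the gene whose genotypes do not overlap, with wild type at 11.6 to 17.7 and knockout at 5.15 to 9.25 CPM.

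Per kilobase of exon, the secretoglobins Scgb1a1 and Scgb3a2 had the highest mean levels among the members, while Scgb3a1, of the same family, was far lower. Scgb1a1, on chromosome 19 from 9083636 to 9087958 on the minus strand (mm10), encodes the club cell secretory protein, also called uteroglobin. It was at 591, 327 and 674 CPM in wild type and at 169, 377 and 348 CPM in knockout. The lowest wild-type library lay below the upper 2 knockout libraries, so the genotypes overlapped. Means were 530 ± 181 and 298 ± 112 CPM (SD, n = 3 each), and the fitted log2 fold change was −0.83 ± 0.44 (SE), which did not pass the test (adjusted p = 0.593, edgeR). Leaving out 1 library moved it between −1.09 and −0.55, the latter without knockout 1.

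Scgb3a2, a second secretoglobin, is expressed early in the developing airway. It was at 747, 599 and 812 CPM in wild type and at 572, 800 and 528 CPM in knockout. Knockout 2 lay near the upper end of wild type, and the other 2 knockout libraries lay below every wild-type library. Fitted over all libraries, the difference was −0.18 ± 0.18 on the log2 scale (adjusted p = 0.771, edgeR). It ran from −0.39 without knockout 2 and −0.31 without wild type 2 to −0.12 without knockout 1, −0.09 without wild type 3 and −0.07 without knockout 3.

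Divided by exonic length in kilobases, which allows genes to be compared, Scgb1a1 was at 1114 ± 381 and Scgb3a2 at 817 ± 124 CPM per kb in wild type, and at 626 ± 236 and 720 ± 166 in knockout. Scgb1a1 thus had the higher mean level in wild type and Scgb3a2 in knockout, with overlapping libraries in both genotypes. Within each library, the ratio of Scgb1a1 to Scgb3a2 per kb was 1.46, 1.01 and 1.54 in wild type and 0.548, 0.870 and 1.22 in knockout. Knockout 3 lay between wild type 2 and wild type 1, so these ratios overlapped too. The ratio was looked at after its parts had been seen and was not tested.

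Scgb3a1, a secretoglobin of larger airways and their secretory cells, had the widest spread between libraries of the 3 secretoglobins. Its reads numbered 26, 176 and 52 in wild type and 138, 174 and 12 in knockout, or 1.17, 7.67 and 2.45 CPM and 5.78, 8.51 and 0.560 CPM. High and low libraries were found in both genotypes, and the highest was 6.53 times the lowest in wild type and 15.2 times in knockout. The log2 fold change of 0.39 ± 1.14 (adjusted p = 0.943, edgeR) turned to −0.24 without knockout 2 and to −0.04 without wild type 1, so its direction rested on single libraries.

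Enzymes formed the next group. Cyp2f2, a cytochrome P450 that activates naphthalene in club cells, was at 287, 161 and 271 CPM in wild type and at 114, 194 and 165 CPM in knockout. Wild type 2 lay among the knockout libraries. Its log2 fold change was −0.60 ± 0.31 (adjusted p = 0.573, edgeR), and it ran from −0.83 to −0.42 when single libraries were left out.

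Cbr2, a carbonyl reductase abundant in mouse lung, was at 521, 395 and 718 CPM in wild type and at 258, 477 and 423 CPM in knockout. The genotypes overlapped through wild type 2, which lay below 2 knockout libraries. With genotype alone the log2 fold change was −0.50 ± 0.32 (adjusted p = 0.661, edgeR), and it was −0.25 without wild type 3 and −0.28 without knockout 1. With the title prefix as a term it was −0.75 ± 0.11 (adjusted p = 0.0115, edgeR), and within the prefixes the knockout libraries differed by −0.81 (AK7986, 2 wild type and 1 knockout) and −0.68 (AK7987, 1 and 2) on the log2 scale.

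Aldh1a7, an aldehyde dehydrogenase closely related to Aldh1a1, was at 165, 150 and 204 CPM in wild type and at 150, 159 and 154 CPM in knockout. The knockout libraries lay within 1.06-fold of each other, while those of wild type spread 1.36-fold. The log2 fold change was −0.16 ± 0.10 (adjusted p = 0.623, edgeR), and it was −0.04 without wild type 3 and −0.26 without wild type 2. Its sequence likeness to Aldh1a1 means that reads shared by both genes may have been lost in counting.

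Cldn10 and Gabrp encode membrane proteins. Cldn10, a claudin of tight junctions used as an early club cell marker, was at 73.6, 60.6 and 86.0 CPM in wild type and at 50.9, 63.4 and 70.7 CPM in knockout. Libraries of the genotypes interleaved. Its estimate was −0.25 ± 0.16 on the log2 scale (adjusted p = 0.636, edgeR), and with the title prefix as a term it was −0.38 ± 0.09 (adjusted p = 0.0429, edgeR). With genotype alone it was −0.13 without wild type 3, −0.13 without knockout 1 and −0.38 without wild type 2. The differences within the prefixes were −0.39 and −0.36.

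Gabrp, the pi subunit of the GABA-A receptor, was at 16.0, 11.6 and 17.7 CPM in wild type (355, 267 and 376 reads) and at 5.15, 9.25 and 9.14 CPM in knockout (123, 189 and 196 reads). Every knockout library lay below every wild-type library. This was so for 1 of the 9 members, beside 8.45% of all genes tested. Gabrp had a log2 fold change of −0.95 ± 0.25 (unadjusted p = 0.00492, adjusted p = 0.201, edgeR). DESeq2 gave an adjusted p of 0.00322, and edgeR with the title prefix as a term gave 0.00752 at −1.17 ± 0.16. Over the 15 alternatives the estimate kept its sign, from −1.17 to −0.72, and the adjusted p ran from 0.00322 to 0.544. The differences within the prefixes were −1.39 and −0.94.

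Muc5b, a gel-forming mucin of the airway surface, had 33, 172 and 53 reads in wild type and 177, 372 and 53 in knockout, or 1.49, 7.49 and 2.49 CPM and 7.41, 18.2 and 2.47 CPM. Knockout 2 was highest and wild type 1 lowest, and knockout 3 lay with the lower wild-type libraries. The log2 fold change was 1.28 ± 0.99 (adjusted p = 0.723, edgeR), and it ran from 0.37 without knockout 2 to 2.22 without wild type 2. Bpifa1, a secreted protein of the upper airway, had 0, 1 and 2 reads in wild type and 1, 2 and 0 in knockout. All of these are below 3 reads, the limit that a count of 0 allows, so no fold is given.

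**Figure D2:**
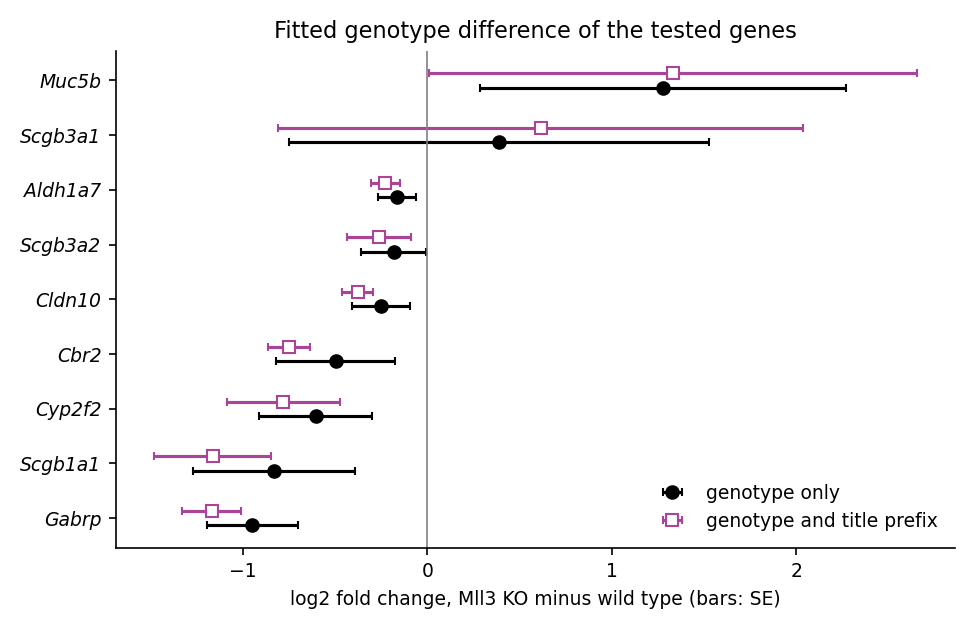
Fitted log2 fold change (Mll3 KO minus wild type) of the 9 tested genes with its SE, for edgeR with genotype only (filled circles) and with the title prefix as a further term (open squares). Gabrp lies at −0.95 and −1.17, and Muc5b at 1.28 and 1.33 with the widest bars beside Scgb3a1.

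Per kb, the order of the mean levels in wild type was Scgb1a1, Scgb3a2, Cbr2 (411 ± 123), Cyp2f2 (118 ± 34.1), Aldh1a7 (83.6 ± 13.4), Cldn10 (28.3 ± 4.90), Scgb3a1 (6.29 ± 5.75), Gabrp (4.48 ± 0.926), Muc5b (0.256 ± 0.215) and Bpifa1 (0.0297 ± 0.0305). Neighbours whose libraries overlapped were Scgb1a1 with Scgb3a2, Cyp2f2 with Aldh1a7 and Scgb3a1 with Gabrp, in both genotypes. All members together took 0.237%, 0.170% and 0.275% of the reads in wild type and 0.137%, 0.214% and 0.169% in knockout. The library with the smallest share was knockout 1 and the one with the largest wild type 3, and wild type 2 lay between the upper 2 knockout libraries.

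Across the 6 libraries most tested members lay nearer their median profile than Scgb3a1 and Muc5b did. This split was made after the values had been seen and is given without a test. Log2 CPM was centred on each gene's mean over the libraries, and genes were compared by the root-mean-square (RMS) difference of these profiles. Scgb1a1, Scgb3a2, Cyp2f2, Cldn10, Aldh1a7, Gabrp and Cbr2 lay within 0.124 to 0.419 of the members' median profile, which was highest in wild type 3 and lowest in knockout 1. Scgb3a1 lay at 1.45 and Muc5b at 1.32 from it. The median profile itself ran only from −0.389 in knockout 1 to 0.367 in wild type 3. A gene with no change over the libraries would lie nearer to it than Scgb1a1 (0.419) or Gabrp (0.377). The RMS difference takes in the size of the swings, so these values do not show a shared course. The median was taken over these same tested members, so nearness of most members to it is partly built in. Scgb3a1 and Muc5b were both high in wild type 2, knockout 1 and knockout 2 and low in wild type 1. Scgb3a1 and Muc5b differed from each other by 0.707, more than the widest pair among the other tested members, Scgb1a1 with Aldh1a7 (0.537). Reg3g, an antimicrobial lectin of secretory cells chosen here after its values were seen, had a like course, at 3.66, 12.5 and 4.94 CPM in wild type and at 7.49, 20.3 and 3.50 CPM in knockout, and lay 0.431 from Muc5b and 0.674 from Scgb3a1.

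**Figure D3:**
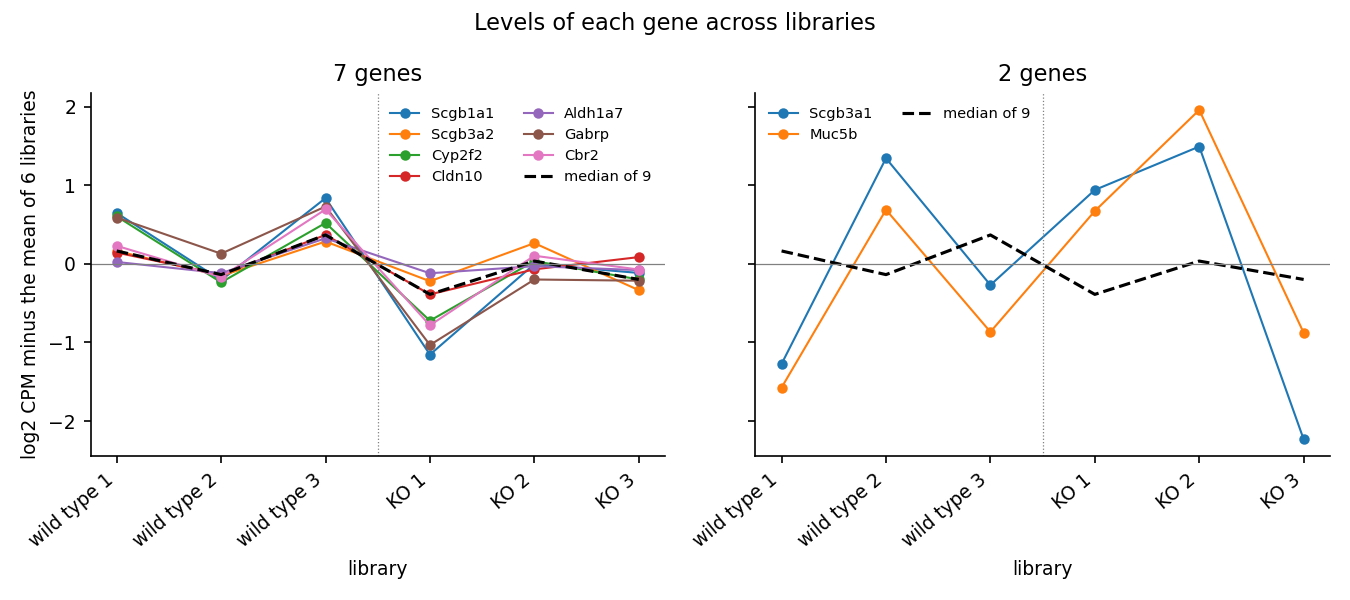
Log2 CPM of each gene minus its mean over the 6 libraries, for 7 members (left) and for Scgb3a1 and Muc5b (right); the dashed line is the median of the 9 and the dotted line separates the genotypes. The genes on the left are lowest in knockout 1 or, for Scgb3a2, in knockout 3, and the pair on the right is high in wild type 2, knockout 1 and knockout 2.

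Outside the lists, genes whose course over the 6 libraries was among the most like the members' median, of 6450 compared, were Tppp3 (RMS 0.0460), Fgfbp1 (0.0558), Selenbp2 (0.0561), Abca4 (0.0573) and Rassf9 (0.0670). Tppp3, a tubulin-binding protein found in ciliated cells, was at 68.2, 55.6 and 83.1 CPM in wild type and at 45.8, 64.0 and 51.9 CPM in knockout. It was highest in wild type 3 and lowest in knockout 1, as the members' median was, and it did not pass the test (adjusted p = 0.525, edgeR). All genes share these libraries, and no test is given.

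Promoter windows of 4 members are shown, of which the first 3 lay nearer the members' median profile than the last, Scgb3a1. They run from 250 bases before to 50 bases after the start of transcription (RefSeq, GRCm38.p6). Of the 10 members, 7 had such a window in the table used, and Scgb1a1, Scgb3a2 and Muc5b had none. Windows of Cldn10 and Aldh1a7, which also lay nearer the median profile than Scgb3a1, and of Bpifa1 are not shown. Capitals mark matches, on either strand, to a forkhead motif (TNTTTNC) or to an NKX2-1 motif (CNCAAG); forkhead factors and NKX2-1 are regulators of airway secretory genes. Windows lie at chr7:27119705-27120004 (plus strand) for Cyp2f2, chr11:120731972-120732271 (minus) for Cbr2, chr11:33578908-33579207 (minus) for Gabrp and chr11:49663345-49663644 (plus) for Scgb3a1.
Cyp2f2: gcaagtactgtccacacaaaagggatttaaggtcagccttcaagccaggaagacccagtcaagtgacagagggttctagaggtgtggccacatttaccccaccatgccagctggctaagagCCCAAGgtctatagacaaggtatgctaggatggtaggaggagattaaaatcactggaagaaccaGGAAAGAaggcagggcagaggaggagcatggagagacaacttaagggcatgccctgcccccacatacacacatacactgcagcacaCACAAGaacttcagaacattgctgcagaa
Cbr2: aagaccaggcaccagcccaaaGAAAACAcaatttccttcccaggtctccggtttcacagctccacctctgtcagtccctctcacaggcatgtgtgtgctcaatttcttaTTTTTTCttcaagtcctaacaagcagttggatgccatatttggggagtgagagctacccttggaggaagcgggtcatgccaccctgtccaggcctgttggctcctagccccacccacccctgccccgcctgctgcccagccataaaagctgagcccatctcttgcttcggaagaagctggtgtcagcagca
Gabrp: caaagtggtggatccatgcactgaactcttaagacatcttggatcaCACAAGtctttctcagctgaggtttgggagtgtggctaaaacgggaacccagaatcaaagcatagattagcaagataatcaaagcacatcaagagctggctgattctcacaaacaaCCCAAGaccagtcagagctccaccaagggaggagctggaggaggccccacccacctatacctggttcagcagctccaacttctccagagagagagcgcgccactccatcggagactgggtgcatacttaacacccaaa
Scgb3a1: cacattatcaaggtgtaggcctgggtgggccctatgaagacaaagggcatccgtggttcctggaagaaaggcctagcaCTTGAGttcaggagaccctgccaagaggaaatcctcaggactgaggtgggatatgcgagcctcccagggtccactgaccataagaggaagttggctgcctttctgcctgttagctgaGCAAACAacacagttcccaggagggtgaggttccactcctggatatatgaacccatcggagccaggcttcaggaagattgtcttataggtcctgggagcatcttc

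Cyp2f2 and Scgb3a1 held matches to both motifs, Cbr2 2 forkhead matches and no NKX2-1 match, and Gabrp 2 NKX2-1 matches and no forkhead match. Of all 32851 windows of this length, 52.7% held the forkhead letters and 47.4% the NKX2-1 letters on either strand, so such matches are common. The TATA letters (TATAAA) were in 13.6% of windows and in none of the 4 shown. Among the members' windows not shown, those of Aldh1a7 and Bpifa1 held them. The motif letters were settled after the windows had been seen, and a match is only a match of letters.

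Other secretory products of the airway did not pass the test as single genes. Of 23 listed, 19 were tested and 0 passed in edgeR or DESeq2, beside 0.368% and 2.22% of genes. In edgeR 3 had an unadjusted p under 0.05, beside 10.7% of all genes tested. The median log2 fold change of the 19 was −0.31. DESeq2 gave 6 of them no adjusted p. Hp, haptoglobin, was at 252, 200 and 334 CPM in wild type and at 149, 195 and 186 CPM in knockout, with no overlap between genotypes. Its log2 fold change was −0.57 ± 0.20 (adjusted p = 0.385, edgeR), or −0.36 without wild type 3, and with the title prefix as a term the adjusted p was 0.00771. Scgb1c1, a further secretoglobin, averaged 1.33 ± 0.196 CPM in wild-type lungs against 0.664 ± 0.188 in the knockout (SD, n = 3 each; adjusted p = 0.243, edgeR).

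Among 15 tested xenobiotic enzymes of airway cells, 1 fell, 0 rose and 7 had an unadjusted p under 0.05 in edgeR, beside 0.368% and 10.7% of all genes tested, with a median log2 fold change of −0.28. The gene that fell was Cyp4b1, a lung cytochrome P450, at 40.5, 40.3 and 32.6 CPM in wild type and at 22.5, 25.8 and 25.3 CPM in knockout, a log2 fold change of −0.63 ± 0.10 (adjusted p = 0.0433, edgeR). The call was lost when any 1 library was left out, with adjusted p between 0.0759 and 0.167 (edgeR). It was also lost in limma voom (adjusted p = 0.0761) and in limma on the deposited values (0.0617). In edgeR it was lost with the Xist and Y-linked split as a term (0.0925) and with scaling to library size only (0.0528). The call was kept in DESeq2 (adjusted p = 8.67e-05). In edgeR it was kept with the title prefix as a term (adjusted p = 0.0188) and with RLE in place of TMM scaling (0.0424). It was also kept in edgeR with a filter of 1 CPM in 3 libraries (adjusted p = 0.0440) and with no filter on low counts (5.35e-06). Aldh3a1, an aldehyde dehydrogenase, was at 1.58, 1.57 and 2.21 CPM in wild type and at 0.251, 0.685 and 0.373 CPM in knockout, with no overlap and a log2 fold change of −2.04 ± 0.37 (adjusted p = 0.0548, edgeR); DESeq2 gave it no adjusted p. Aox3, an aldehyde oxidase, was at 49.9 ± 4.24 and 27.7 ± 8.56 CPM (adjusted p = 0.26, edgeR; 0.000456 in DESeq2).

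The 23 tested regulators of secretory fate had among them the Notch pathway, forkhead factors, Nkx2-1 and Sox2. Of these 23, 0 passed in edgeR or DESeq2, beside 0.368% and 2.22% of genes. In edgeR 4 had an unadjusted p under 0.05, beside 10.7% of all genes tested. The median log2 fold change of the 23 was −0.01. Nkx2-1, the transcription factor that sets lung identity, was at 340, 386 and 391 CPM in wild type and at 436, 426 and 465 CPM in knockout, with a log2 fold change of 0.25 ± 0.08 (adjusted p = 0.27, edgeR). Klf5, an epithelial transcription factor, was at 102 ± 6.76 and 85.0 ± 8.92 CPM (adjusted p = 0.283, edgeR). Heyl, a Notch target, was at 20.7 ± 1.73 and 25.5 ± 2.18 CPM (adjusted p = 0.289, edgeR).

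Summed over each list, ciliated cell markers followed the members from library to library. The ciliated sum was 411, 385 and 602 CPM in wild type and 244, 411 and 364 CPM in knockout, beside 2403, 1719 and 2787 and 1333, 2106 and 1701 CPM for the members. Scgb1a1 and Scgb3a2 held between 51.6% (knockout 3) and 55.9% (knockout 2) of the members' reads. The members' sum thus shows little of Scgb3a1 and Muc5b, which lay 1.46 and 1.36 (RMS) from Foxj1. In both sums wild type 3 was highest and knockout 1 lowest. The same held for alveolar type 1 markers (4033 and 2485 CPM) and other airway secretory products (1230 and 792 CPM). The shared extremes were thus not particular to ciliated markers. All 19 ciliated markers were detected and tested, with a median log2 fold change of −0.47. All 19 had a negative estimate, beside 9018 of all 19042 genes tested. These markers were measured in the same libraries, so their signs are not independent of each other. With genotype alone 0 passed in edgeR and 0 in DESeq2, beside 0.368% and 2.22% of genes. In edgeR with genotype alone 4 had an unadjusted p under 0.05, beside 10.7% of all genes tested. With the title prefix as a term 16 were called lower, beside 2.54% of all genes tested. Foxj1, the transcription factor of ciliogenesis, was at 60.8, 53.7 and 81.3 CPM in wild type and at 42.1, 53.8 and 48.2 CPM in knockout (log2 fold change −0.44 ± 0.16, adjusted p = 0.378, edgeR). Whether the amount of airway in each piece of tissue had a part in the members' values was not tested.

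Markers of other cells are given beside this. Pan-epithelial genes summed to 1348, 1240 and 1409 CPM in wild type and to 1227, 1200 and 1249 CPM in knockout, and the 8 genes had a median log2 fold change of 0.01. Of these 8, edgeR called 0, with 4 at an unadjusted p under 0.05, beside 0.368% and 10.7% of all genes tested. By DESeq2, 1 was higher and 3 were lower, beside 2.22% of genes called in either direction. Basal cell markers summed to 327 CPM in wild type 1 and to 29.7 to 80.6 CPM in the other 5 libraries; Krt5, a basal keratin, was at 56.1 CPM in wild type 1 against 0.0837 to 3.83 elsewhere, and the estimates of Krt5, Krt15, Trp63 and Aqp3 turned positive without it. Of the 6 basal markers tested, 0 passed in edgeR or DESeq2, beside 0.368% and 2.22% of genes. In edgeR 0 of them had an unadjusted p under 0.05, beside 10.7% of all genes tested, and 2 had no adjusted p in DESeq2. None of the 8 listed was at 0 in all libraries. The part of basal cells in the members' values was not tested. Of 10 tested alveolar type 2 markers, edgeR called 0, with 3 at an unadjusted p under 0.05, beside 0.368% and 10.7% of all genes tested. By DESeq2, 2 of these 10 were higher, beside 2.22% of genes called in either direction. Of 7 alveolar type 1 markers, 3 fell in edgeR and all 7 had an unadjusted p under 0.05, beside 0.368% and 10.7% of all genes tested, with a median of −0.58. All 7 were called lower by DESeq2 and with the title prefix as a term, beside 1.83% and 2.54%, and in all 7 every knockout library lay below every wild-type library, beside 8.45%. Neither the 5 tested neuroendocrine markers nor the 6 tested cartilage genes of large airways held a gene that passed in edgeR, beside 0.368% of all genes tested. Respectively, 0 and 3 had an unadjusted p under 0.05 in edgeR, beside 10.7% of all genes tested. By DESeq2, which gave 2 genes of each list no adjusted p, 0 and 1 passed, beside 2.22% of genes.

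**Figure D4:**
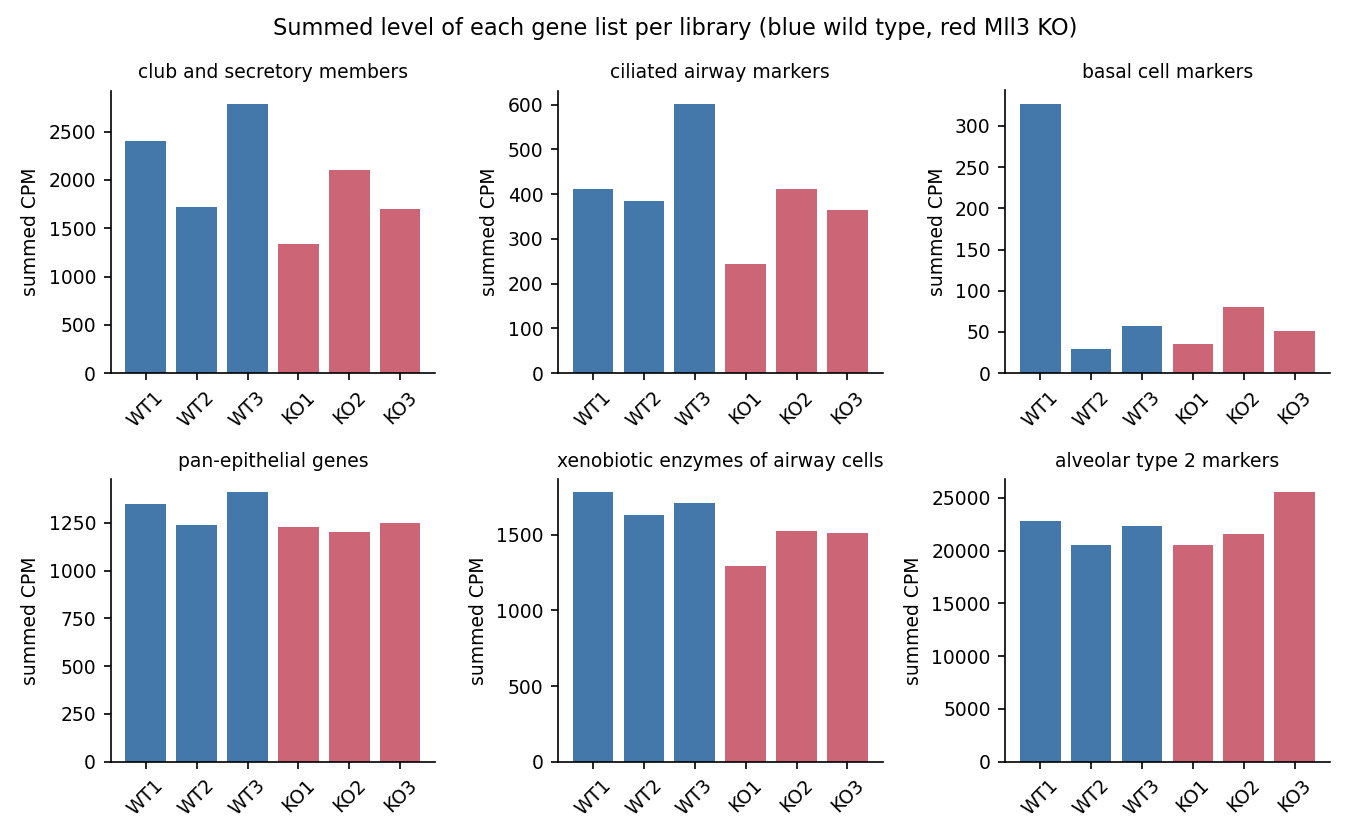
Summed CPM per library of the members and of 5 other gene lists; blue bars are wild type and red bars Mll3 KO, each axis starts at 0. The members and the ciliated markers are both highest in wild type 3 and lowest in knockout 1, and basal cell markers stand out in wild type 1 at 327 CPM.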

How the data were processed

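RNA-seq counts per gene were taken from the authors' deposited table, made with featureCounts 1.6.3 on mm10 with Ensembl 98 annotation, reverse-stranded (setting 2), mapping quality of at least 1, per the file headers. Reads were 75 bp single reads, per the labels' protocols; GSNAP and DESeq2 1.24.0 are named in the submitters' processing notes. The authors' second table holds a normalised signal: each library's counts over its own size factor. All 24521 of its genes gave back the counts within 0.15 read in every library. The 92 spike-in rows (1 read) were left out, and 0 columns of per-sample values went unused.

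Here, edgeR 4.0.16 (R 4.3.3; TMM, filterByExpr, quasi-likelihood, Benjamini-Hochberg at 0.05) compared genotypes over all 6 libraries. An SE is the size of the log2 estimate over the root of its F statistic. Levels are CPM after TMM; log2 profiles use a prior count of 2. Alternatives were DESeq2 1.42.0, limma 3.58.1 (voom, or the deposited signal plus 1), other scaling and filters, title prefix or Xist/Y split as a term, and each library left out. edgeR was tested on simulated data. The floor of 3 reads covers counting error only, while the SEs and SDs also take in the spread between libraries.

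Members, lists and rules were chosen with earlier results of these data known. By rule, named genes are all members, up to 4 genes per list with the lowest p, Kmt2c, and the 6 genes outside the lists most like the members' median profile, among genes of at least 1 CPM with an SD of at least 0.5 of that profile's. One of those 6 is not reported here, and Reg3g was named after its values were seen. Dnai1 was matched under its symbol Dnaic1.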

Additional observations from a re-analysis of the deposited data

How the results depend on the processing

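Of the 9 tested members, 0 were called by edgeR with genotype alone, 1 by DESeq2 (Gabrp) and 3 with the title prefix as a term; each of the other alternatives, including every left-out library (0 to 0), called 0. The genes called in the other 10 lists numbered 4 with genotype alone, 16 in DESeq2, 2 with the Xist and Y-linked split as a term, 2 in limma on the deposited values, 1 in limma voom, 14 with no filter on low counts, 35 when the prefix of the title was a term, and 0 to 2 when 1 library was left out. The cause was not tested. Over all genes, 70 were called with genotype alone, 356 by DESeq2, 8 by limma voom, 32 with the Xist and Y-linked split, 43 in limma on the deposited values, 443 with no filter, 625 with the title prefix and 0 to 41 without a library. Estimates that turned sign were Scgb3a1 (−0.24 without knockout 2, −0.04 without wild type 1, range up to 1.45), Krt5 (2.89, range from −5.50), Aqp3 (0.28, from −2.05), Trp63 (0.91, from −2.05) and Krt15 (0.23, from −1.53) without wild type 1, and Chga (−1.07, up to 2.47) and Chgb (−0.74, up to 1.28) without knockout 2, each range over single libraries left out. Of the tested members, Scgb3a1 kept its sign in 13 of 15 alternatives and the others in 15 of 15. Bpifa1, with at most 2 reads per library, could not be measured at this depth; reads of Muc5b (33 to 372) and Gabrp (123 to 376) were of like number, while their SEs were 0.99 and 0.25. Replicate numbers follow accession order and pair nothing; the title prefix, which both genotypes carry, was the only block fitted.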
